A study of Mus musculus with 9 samples.

Results

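The weak remote sites of G1297 were EWS/ATF1 peaks with a low score that had no counterpart nearby in sarcoma-iPSC MEFs. They were chosen by measured values of both peak lists: a G1297 peak belonged to them when its score was below 500 and when more than 5000 bp separated its edge from the edge of the closest MEF peak on the same chromosome. Of the 8090 G1297 peaks, 1908 (23.6%) met both conditions. Score and distance to the MEF peaks are therefore properties the sites were selected on, and they are given below as a description with no test.

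G1297 is a cell line from a murine clear cell sarcoma model in which EWS/ATF1 is switched on by doxycycline (Dox). The MEFs were derived from sarcoma iPSC #3, came from chimeric embryos by puromycin selection, and carry part of the chromosomal abnormalities of the sarcoma. Both cell types were exposed to Dox at 0.2 µg/ml for 12 h before ChIP with an anti-HA antibody, which recovers the tagged fusion protein. For these conditions the labels list 2 ChIP libraries of G1297 and 1 of the MEFs. Input libraries are 2 numbered ones of G1297 and 1 of the MEFs. The labels also name 1 further G1297 input, marked ON, and 2 ChIP libraries of G1297 with Ebf1-KRAB or Nanog-KRAB, which were not analysed here. The authors deposited 1 peak list per cell type, with 8090 peaks in G1297 and 27130 in the MEFs, and which libraries and inputs entered a list is not given in the sources used here. The lists carry no read counts and no values per replicate, so the depth is unknown and no difference could be set against a spread between replicates. A region that missed the calling threshold in the MEFs and a region without binding cannot be told apart in these lists.

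EWS/ATF1 joins the N-terminal part of EWS, which can activate transcription, to the part of ATF1 that holds its bZIP domain. Through that domain ATF1 binds DNA as a dimer, mainly at the cyclic AMP response element (CRE). The fusion drives clear cell sarcoma, and transcription factors of this kind bind different subsets of their elements in different cell types.

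Most weak remote sites had scores in the lower part of the range between the calling threshold and the rule's limit of 500. The score is −10 times the log10 of the MACS P value, so that the P value of 1e-09 used for calling corresponds to a score of 90. The sites had a median score of 159.3, with a lower quartile of 114.8 and an upper quartile of 251.0, and the lowest score was 90.04. The median was 165.6 for weak peaks within 5 kb of a MEF peak but not overlapping one, 194.1 for weak peaks that overlapped one, and 187.6 for these other weak peaks together. A score below 200 was found in 1219 weak remote sites (63.9%). Between 90 and 100 there were 230 sites, and between 400 and 500 there were 109.

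The share of G1297 peaks that were weak remote is given by score as a description, since the rule used both values. Among the 511 G1297 peaks with a score of 90 to 100, 45.0% were weak remote (95% exact binomial interval, 40.6% to 49.4%). A MEF peak was overlapped by 41.5% of these 511 peaks. From 100 to 200 the weak remote share was 37.0% (35.2% to 38.9%), and from 200 to 300 it was 30.9% (28.3% to 33.6%). It was 29.1% (25.9% to 32.5%) from 300 to 400 and 22.3% (18.7% to 26.3%) from 400 to 500. Intervals cover counting error only and treat peaks as independent, which neighbouring peaks are not. Above the limit, 431 of 2498 peaks with a score of at least 500 (17.3%) met the same distance limit, and these are called strong remote sites. At a score of at least 2000, 44 of 521 peaks (8.45%) were that far away.

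**Figure D1:**
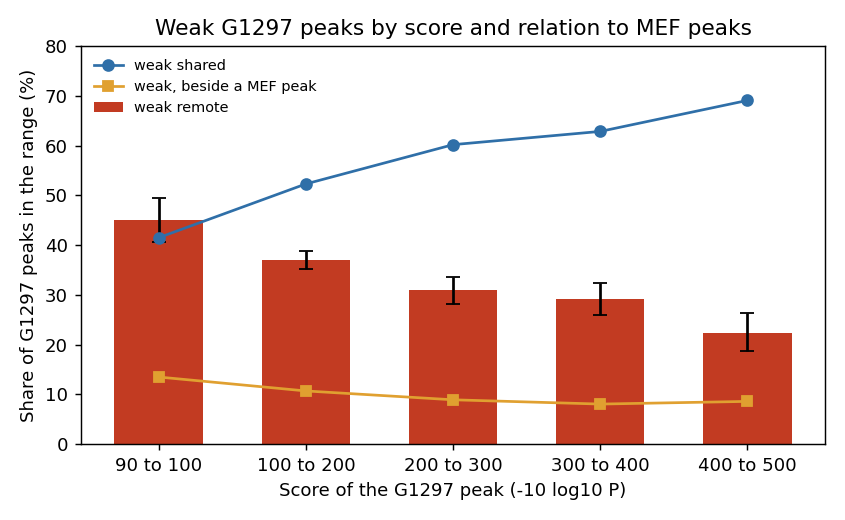
Share of G1297 peaks in each score range that were weak remote (bars, with 95% exact binomial intervals), that overlapped a MEF peak (circles) or that lay within 5 kb of one without overlap (squares). The weak remote share goes from 45.0% in the lowest range to 22.3% in the highest.

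The plot of shares by score gives the overlapping peaks as 41.5% of the lowest and 69.1% of the highest range. Weak peaks beside a MEF peak, with a gap of at most 5 kb and no overlap, made up 13.5% of the lowest range and 8.61% of the highest.

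At the edges of the rule the values ran on without a break. The weak remote sites closest to the score limit had scores of 498.4 (chromosome 6) and 498.17 (chromosome 2), and the strong remote sites closest to it had scores of 500.02 (chromosome 12) and 500.53 (chromosome 15). The smallest gaps to a MEF peak among weak remote sites were 5001 bp (chromosome 19) and 5024 bp (chromosome 5), and the largest gaps left outside the rule were 4986 bp (chromosome 9) and 4984 bp (chromosome 11).

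In width, which was not part of the rule, weak remote sites looked like other weak sites of the same score. Their median width was 701 bp, with a range of 216 to 1583 bp, against 701 bp for weak peaks beside a MEF peak, 746 bp for weak shared peaks, which overlap a MEF peak, and 1138 bp for strong remote sites. Width followed the score closely, with a Spearman's rho of 0.823 across the 1908 sites, which all come from 1 list in which both values are drawn from the same reads. A width above 1000 bp was found for 95 weak remote sites (4.98%) and for 323 of the 431 strong remote sites (74.9%). The 90th percentile of width was 916 bp for weak remote sites, 963.7 bp for the other weak peaks and 1338 bp for all G1297 peaks.

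Within ranges of equal score the 3 weak classes were nearly equal in width. With a score of 90 to 100 the median was 584.5 bp for weak remote, 589 bp for weak shared and 565 bp for weak sites beside a MEF peak. With a score of 400 to 500 the medians were 942, 928 and 939 bp, respectively. All weak remote sites together covered 1.39 Mb, or 18.9% of the 7.36 Mb covered by G1297 peaks.

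**Figure D2:**
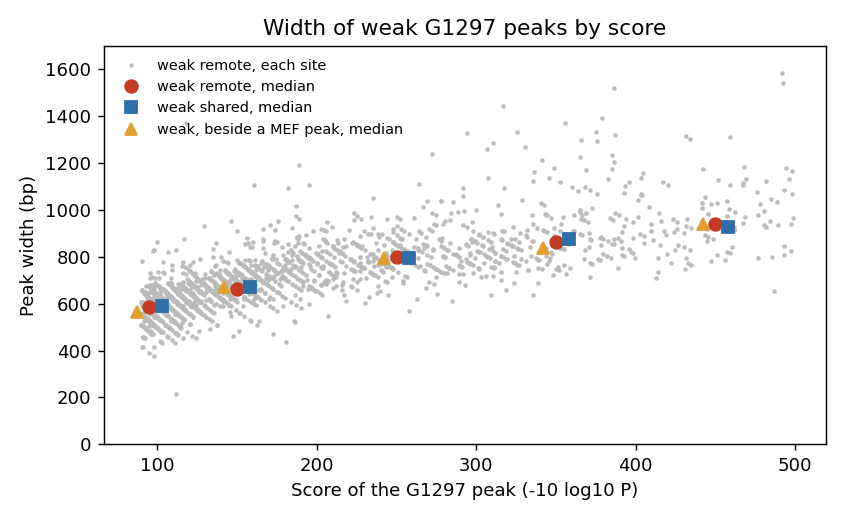
Width of each weak remote site (grey points, bp) against its score, with the median width per score range of weak remote sites, weak shared sites and weak sites beside a MEF peak, which are drawn slightly apart along the score axis. The medians of the 3 classes lie close together in every range, from 565 to 589 bp in the lowest to 928 to 942 bp in the highest.

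The 3 widest weak remote sites had scores from 386.6 to 492.2. They were chr5:129694912-129696494 (1583 bp), chr7:144420560-144422101 (1542 bp) and chr2:31646286-31647804 (1519 bp), in mm9 coordinates as for every position here. The widest of them had another weak remote site, with a score of 342.6, only 461 bp away.

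The distance to the MEF peaks was wide-ranging and hardly differed between weak and strong remote sites. The median gap was 28.8 kb for weak remote sites, with quartiles of 13.4 and 70.7 kb, and 29.1 kb for strong remote sites. A gap of more than 100 kb was found for 323 weak remote sites (16.9%) and for 75 strong remote sites (17.4%). At the near end, 311 weak remote sites (16.3%) lay between 5 and 10 kb from a MEF peak. Between score and gap, both of which the rule limits, rho was −0.0436 across the 1908 sites of this list, and nothing is read from it.

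**Figure D3:**
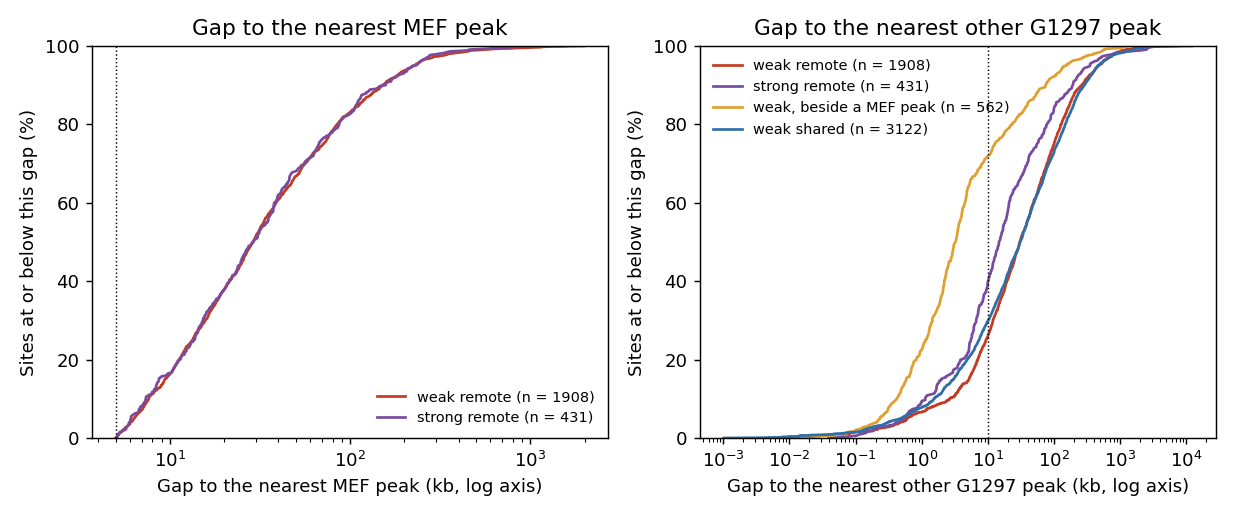
Cumulative share of sites by gap to the nearest MEF peak (left, with the 5 kb limit dotted) and to the nearest other G1297 peak (right, with 10 kb dotted), in kb on log axes. On the left the curves of the 1908 weak remote and 431 strong remote sites run together, and on the right weak remote sites follow the 3122 weak shared sites above about 10 kb.

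Only 9 weak remote sites were more than 1000 kb from a MEF peak. The farthest, chr2:97671685-97672375, lay 1991 kb from the nearest MEF peak, with a score of 143.2. The next, chr6:26214061-26214757, lay at 1606 kb with a score of 119.8. The other site named for its distance was chrX:73091234-73091859, at 1591 kb and with a score of 101.7, and its nearest G1297 peak was 7474 kb away. All 3 scores were below the class median of 159.3.

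Some of the MEF peaks that flanked weak remote sites were bound in G1297 too. For 708 of the 1908 sites (37.1%, 95% interval 34.9% to 39.3%) the nearest MEF peak overlapped a G1297 peak. The same held for 193 of the 431 strong remote sites (44.8%). It held for 56.4% of weak and 61.0% of strong sites beside a MEF peak. Of all MEF peaks, 18.5% overlapped a G1297 peak. The MEF peaks nearest to a G1297 peak lie where G1297 peaks are, so these shares describe the surroundings and were not tested. Counted once per site, the nearest MEF peak had a median score of 283.7, against 314.8 for all MEF peaks. In all, 1566 different MEF peaks were the nearest ones.

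Fewer MEF peaks lay around weak remote than around weak shared sites, as the rule favours. Within 50 kb, a weak remote site had a median of 1 MEF peak, while weak shared sites had 4, including the one they overlap. Over whole autosomes there were from 8.59 (chromosome 7) to 13.3 (chromosome 13) MEF peaks per Mb, so a median of 1 is not called low for the genome. No MEF peak lay within 50 kb of 634 weak remote sites (33.2%), and 5 or more lay there for 176 (9.22%). The corresponding shares for strong remote sites were 32.0% and 9.74%, so that the 2 classes of remote sites did not stand apart in this measure.

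Most weak remote sites stood alone in the G1297 list. No other G1297 peak lay within 10 kb of 1411 of them (74.0%, interval 71.9% to 75.9%), compared with 63.1% of all G1297 peaks, 70.2% of weak shared sites, 60.3% of strong remote sites and 28.3% of weak sites beside a MEF peak. The median gap to another G1297 peak was 30.4 kb, against 30.8 kb for weak shared and 14.8 kb for strong remote sites. The rule itself bears on this measure, because a shared G1297 peak lies on a MEF peak and is thereby mostly kept at least 5 kb from any weak remote site.

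Isolation decreased with the score. It was 79.1% for weak remote sites with a score of 90 to 100 and 60.6% for those with a score of 400 to 500. The values of weak shared sites in these ranges were 71.2% and 61.4%. The difference between the classes was not tested, and over all scores its direction turned with the window. No other G1297 peak lay within 50 kb of 39.3% of weak remote and 39.8% of weak shared sites, and within 100 kb the shares were 25.1% and 27.2%.

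Where a weak remote site did have a G1297 peak within 10 kb, that neighbour was mostly remote as well. Of the 497 such sites, 264 (53.1%) had another weak remote site as the nearest peak and 95 (19.1%) had a strong remote site, classes that made up 23.6% and 5.33% of all G1297 peaks. The 171 strong remote sites with a neighbour at that distance gave similar shares, 55.0% and 18.7%. A weak shared peak was nearest for 60 and a strong shared peak for 55. The rule favours this order for the same reason as above, and it was not tested.

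A strong remote site lay within 10 kb of 106 weak remote sites (5.56%), against 2.67% of weak sites beside a MEF peak, 0.641% of weak shared and 1.22% of strong shared sites. Seen from the other side, 100 of the 431 strong remote sites (23.2%) had at least 1 weak remote site within 10 kb. The rule places both remote classes in the same ground away from MEF peaks and keeps shared sites out of it, so these shares describe the layout of the list and were not tested.

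Close groups were small. When weak remote sites with at most 5000 bp between them were joined, 1799 groups resulted, of which 1701 were single sites, 88 held 2 sites, 9 held 3 and 1 held 4. In all, 207 sites (10.8%) were in groups of at least 2. The group of 4 (chr8:108713259-108718570) had scores of 191.8, 143.7, 371.3 and 260.2 in order of position and widths of 777 to 878 bp. Each of its sites was at least 181.7 kb from the nearest MEF peak, and no other G1297 peak lay in the same stretch between MEF peaks. The smallest gap to another G1297 peak was 9 bp, between chr16:70644023-70644778 with a score of 186.7 and a weak remote neighbour with a score of 166.7.

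Over longer distances some weak remote sites shared a stretch without any MEF peak. The rule places every weak remote site in such a stretch, and the counts per stretch were not tested. The 1908 sites fell into 1498 stretches free of MEF peaks. Of these, 4 were open at a chromosome end, and the others, each between neighbouring MEF peaks, had a median length of 129.2 kb. Of the 1498 stretches, 1199 held 1 weak remote site, and 299 held at least 2. Those 299 contained 709 sites, or 37.2% of the total. A strong remote site was present in 168 of the stretches (11.2%), which contained 291 weak remote sites (15.3%), while 1036 weak remote sites (54.3%) were the only G1297 peak of their stretch, leaving aside peaks that overlap the MEF peaks at its ends.

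The stretch with the most weak remote sites was picked for its count after the values were seen. It spanned 886.9 kb (chr4:152208524-153095377) and held 12 G1297 peaks, of which 10 were weak remote and 2 strong remote. The weak remote sites there were low even for their class, with scores of 90.09 to 172.3, a median of 107.0 and widths of 497 to 698 bp. A site with a score of 90.93 lay between the strong remote peaks, which had scores of 668.3 and 1941, and others formed close groups with gaps down to 17 bp. At both ends, the MEF peak that closed the stretch, with a score of 549.0 or 333.4, coincided with a G1297 peak with a score of 1999.9 or 2591.

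**Figure D4:**
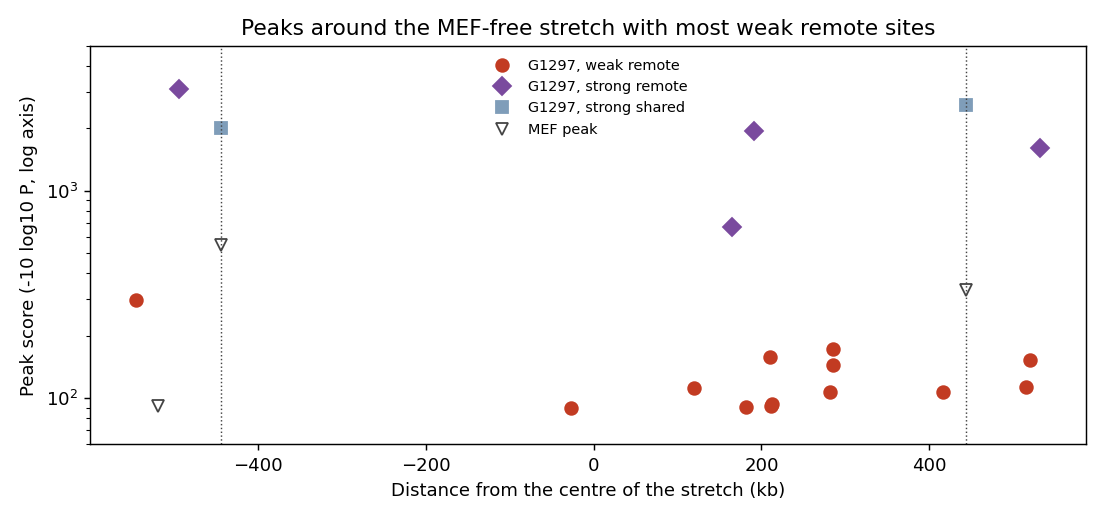
Peaks on chromosome 4 in and around the MEF-free stretch with most weak remote sites, by distance from its centre (kb) and score (log axis); filled symbols are G1297 peaks, open triangles MEF peaks, and dotted lines mark the MEF peaks that close the stretch. The 10 weak remote sites between the lines have scores of 90.09 to 172.3, and 2 strong remote peaks lie among them.

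The map of this stretch shows that 9 of its 10 weak remote sites lay on the same side of its centre, together with both strong remote peaks. Weak remote sites with scores of 113.4, 153.7 and 296.1 lay outside the stretch, beyond the MEF peaks at its ends.

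Weak remote sites occurred on all 19 autosomes and on X, with 3 on sequences not placed on a chromosome. The G1297 list had 0 peaks of any class on Y. They made up 23.6% of all G1297 peaks, and this share varied between chromosomes from 15.3% on chromosome 14 (38 of 248; interval 11.1% to 20.4%) to 29.0% on chromosome 11 (126 of 434; 24.8% to 33.6%). Chromosomes 4, 6, 10 and 16 had shares of 28.3%, 27.7%, 28.1% and 28.0%. Chromosomes 3 and 19 were low, with 17.9% and with 43 of 239 peaks. The lowest and highest shares were picked from 20 chromosomes, and their intervals make no allowance for that. The paper reports chromosomal aberrations in G1297, of which the MEFs carry a part. Copy number was not tested, and an effect of it on the peak counts of a chromosome cannot be told apart from binding in these lists.

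**Figure D5:**
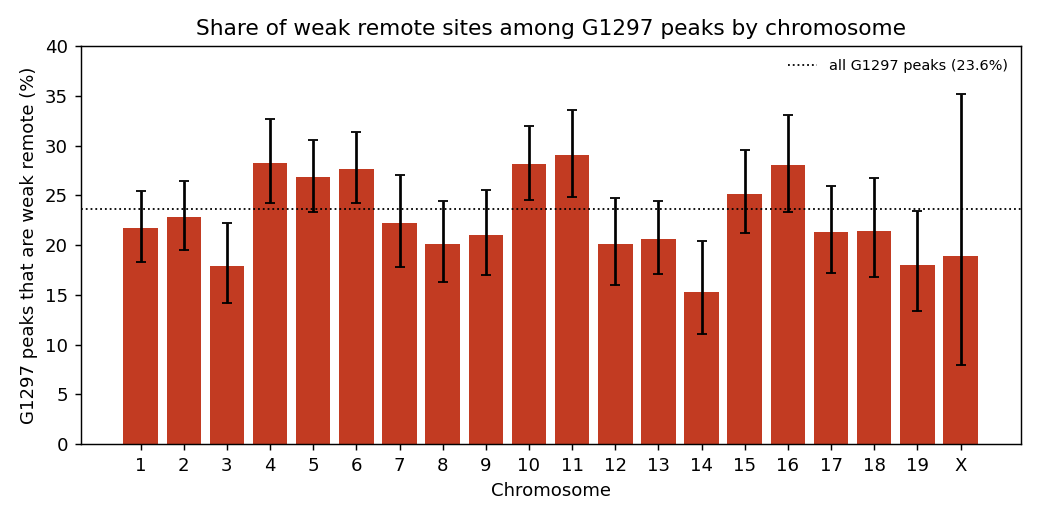
Share of each chromosome's G1297 peaks that were weak remote (bars, %, with 95% exact binomial intervals) on the autosomes and X, with the share over all G1297 peaks dotted. Chromosome 14 has the lowest share, 15.3%, and chromosome 11 the highest, 29.0%.

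In numbers, chromosome 6 held the most weak remote sites. Its 174 sites were 9.12% of the total, whereas the chromosome held 7.36% of the other G1297 peaks and 5.45% of the MEF peaks. Chromosomes 5 and 10 followed with 162 sites each, or 8.49% of the total. Chromosome 10 held 6.70% of the other G1297 peaks and 5.96% of the MEF peaks, and chromosome 5 held 7.13% and 6.61%, so its excess was smaller. Chromosome 14 was the reverse, with 1.99% of the weak remote sites, 3.40% of the other G1297 peaks and 5.11% of the MEF peaks. Only 7 sites (0.367%) were on X, which held 37 G1297 peaks in all.

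The share was also set beside the number of MEF peaks on each chromosome, which the rule itself uses. Across the 19 autosomes, the share of weak remote sites had a rho of −0.551 with the number of MEF peaks per G1297 peak, and both measures share the count of G1297 peaks, so no relation is read from this. With MEF peaks per Mb, taken to the end of the last peak, rho was −0.0333. The score of the sites varied little between autosomes, with medians from 143.8 on chromosome 17 to 172.5 on chromosome 13, and with 152.3 and 169.7 on chromosomes 11 and 14, the ends of the plot by chromosome.

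The highest and lowest scores show the span of the class. The 3 highest were 498.4 (chr6:71614190-71615154), 498.17 (chr2:163777459-163778524) and 497.7 (chr4:127744782-127745947). All 3 were at least 90.6 kb from a MEF peak and at least 30.6 kb from another G1297 peak. At the other end, the score of 90.04 was shared by chr4:129533001-129533511 and chr8:105224113-105224623, both 511 bp wide. The former was 4701 bp from a shared G1297 peak with a score of 3100 and the latter 154.3 kb from any G1297 peak, so sites of the lowest score were found both next to a very strong peak and far from any. The next score was 90.06 (chr4:40156647-40157255).

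A pair of regions displayed by the study in mm9 could be searched for weak remote sites. Around Setd4 and Cbr1, of which Cbr1 encodes a carbonyl reductase, there was 1 (chr16:93592098-93592619), with a score of 110.8 and a width of 522 bp. It lay 546 bp from a strong remote peak with a score of 1273 and 11962 bp from the nearest MEF peak. The next weak remote site beyond the region (chr16:93612149-93612837), singled out after its values were seen, had a score of 121.1 and was 14.5 kb from another strong remote peak. In the region around Cdkn2a and Cdkn2b there were 0. The paper displays this locus as bound by EWS/ATF1 in the MEFs but not in G1297, so the 0 follows from the choice of region. Cdkn2b and the Ink4a product of Cdkn2a encode inhibitors of the cell cycle kinases CDK4 and CDK6, and Cdkn2a also encodes Arf.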

How the data were processed

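Per the submitters' processing notes, reads were handled with FastQC and cutadapt, aligned to mm9 with Bowtie2 2.2.0, and peaks were called with MACS 1.4.2. The authors deposited 1 list of peaks per cell type, each peak with a position and a score, −10 times the log10 of its P value. The KRAB libraries were not analysed here.

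The gap between peaks was the number of bases between their edges, and an overlap was at least 1 bp. Gaps were computed with Python 3.11.15, pandas 2.3.3 and numpy 2.4.6 and equalled those of bedtools 2.31.1 for 8090 of 8090 G1297 peaks; the steps were tested on simulated data. Exact binomial 95% intervals and Spearman's rho came from scipy 1.17.1, and figures from matplotlib 3.10.9. No test was run, because each cell type had 1 list without replicate values.

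The genome at hand was of another build than mm9, so the planned account of sequence was not run and no genes were assigned. Peaks named by position were the 3 with the highest score, the lowest score, the largest gap to a MEF peak and the largest width, those at the limits of the rule, the largest group, the site nearest to another G1297 peak, and those in the displayed regions; those on chromosome 18 are not named. The members and lists were chosen with earlier results of these data known. Other limits of gap, score, window and MEF list were tried.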

Additional observations from a re-analysis of the deposited data

How the results depend on the processing

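Of the 44 alternatives computed, 31 left their value within 1.5 times the count, or within the 95% interval, of the value reported. The number of weak remote sites was 634 with a gap above 50 kb, 1219 with a score below 200, 3655 when the MEF list was shortened to its top scores until it was as long as the G1297 list, and 3432 with MEF peaks scoring at least 500; in each case the change follows from the stricter or looser limit itself. The median width was 648 bp with a score below 200 and 726 bp with scores of 100 or more. The share without another G1297 peak within 10 kb was 80.2% with a gap above 10 kb, 76.1% with a score below 200, and 86.2% when G1297 peaks within 5 kb were joined; it was 85.4% for a window of 5 kb and 39.3% for one of 50 kb. The share whose nearest MEF peak overlapped a G1297 peak was 34.6% with a gap above 10 kb and 40.3% with MEF peaks scoring at least 200. Beyond the limits themselves, the cause of these shifts was not tested. The shares on chromosomes 6, 10, 14 and X stayed within their intervals under all 4 alternatives run on them. Leaving out the sequences not placed on a chromosome, an alternative chosen after seeing the data, gave 1905 sites. No paired analysis was possible because the lists hold no values per replicate, and for the same reason no replicate could be left out. The unknown depth of the libraries limits every count here, since the number of peaks above the calling threshold, in G1297 and in the MEFs, moves with depth.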
